A study of Mus musculus with 2 samples.

Results

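5530601H04Rik is a long noncoding gene on the minus strand of the mouse X chromosome whose outermost annotated start faces that of the protein-coding gene Pbdc1. Its transcripts were chosen by position, as all lines of a deposited transcript list that overlap a 50 kb window of chromosome X on either strand. The choice used the deposited positions, and the gene name came from an earlier structure match of the same list. Neither membership of the locus nor its name is itself a finding. The window held 81 of the 110003 transcripts in the list. Of these, 80 lay on the minus strand and formed 1 locus of overlapping transcripts at chrX:102232534-102274948 (mm9), a span of 42415 bp, and 1 lay on the plus strand. Transcripts just outside the window were single-exon. The nearest on the minus strand were 48.1 kb upstream of the locus and 290 kb downstream, and the nearest on the plus strand 61.1 kb upstream and 3.74 kb downstream.

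The libraries of the series came from V6.5, a male mouse embryonic stem cell line kept on a layer of irradiated mouse embryonic fibroblasts. RNA selected for poly(A) tails and total RNA depleted of ribosomal RNA each gave 1 strand-specific library, with no other treatment or genotype named. The deposited list does not separate the libraries, carries no read count or expression value, and marks each transcript with a name that begins BROAD, WHITEHEAD, FT or U. The labels and the file header do not say what these prefixes stand for or whether they come from separate data. Whether every listed transcript was seen in these libraries is therefore not known, and RNA from the feeder cells cannot be told apart. With no replicate and no value per library, every count below is a description with no test, depth is unknown for every transcript, and stem cell markers could not be checked.

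Long noncoding RNAs are transcripts without a recognised protein product, often spliced and often present in many isoforms. Many arise at promoters from which RNA polymerase starts in both directions, so that a coding and a noncoding transcript leave head to head. On the X chromosome of female cells 1 copy is silenced through the noncoding RNA Xist, and 5530601H04Rik and Pbdc1 have been described among the mouse genes that escape this silencing. Splicing joins a donor site, which as a rule begins the intron with GT, to an acceptor site, which as a rule ends it with AG.

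The following sequences are the start regions and the exons at which the isoforms differed, all on GRCm38 and 5′ to 3′ on the strand named. The first is the plus-strand stretch upstream of Pbdc1 (chrX:105079506-105079755, RefSeq), before the start that GENCODE and the RefSeq promoter window share. The RefSeq gene record begins slightly earlier, at 105079731, so the last bases shown lie inside it. Capitals mark the 104 bases that also lie, on the other strand, in the longest annotated first exon of 5530601H04Rik.
Pbdc1 upstream stretch: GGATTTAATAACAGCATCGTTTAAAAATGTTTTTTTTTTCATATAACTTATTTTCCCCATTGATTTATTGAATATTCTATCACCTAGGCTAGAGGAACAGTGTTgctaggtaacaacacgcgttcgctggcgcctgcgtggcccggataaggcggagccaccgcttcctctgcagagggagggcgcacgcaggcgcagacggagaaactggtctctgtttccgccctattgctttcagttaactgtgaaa
The second is the start region of the RefSeq record of 5530601H04Rik (chrX:105070075-105070374, minus strand). Capitals mark the AG just before the exon that incoming transcripts splice to and the 50 bases from the RefSeq start onward.
Inner start region: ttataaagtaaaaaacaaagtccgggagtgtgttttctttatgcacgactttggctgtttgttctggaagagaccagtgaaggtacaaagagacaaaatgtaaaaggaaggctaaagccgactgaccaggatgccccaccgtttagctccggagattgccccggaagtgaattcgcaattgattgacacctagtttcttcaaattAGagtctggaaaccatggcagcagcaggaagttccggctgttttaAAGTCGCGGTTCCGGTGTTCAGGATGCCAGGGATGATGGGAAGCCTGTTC
The annotated first exon facing Pbdc1 (chrX:105079335-105079413, minus strand, GENCODE) has capitals on the 11 bases between its alternative donors, and these begin with GT.
Exon facing Pbdc1: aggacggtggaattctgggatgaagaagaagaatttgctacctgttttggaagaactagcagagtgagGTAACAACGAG
Exon 1 from the inner start (chrX:105070000-105070124, minus strand) has capitals on the 65 bases left out when the earlier donor is used.
Exon 1: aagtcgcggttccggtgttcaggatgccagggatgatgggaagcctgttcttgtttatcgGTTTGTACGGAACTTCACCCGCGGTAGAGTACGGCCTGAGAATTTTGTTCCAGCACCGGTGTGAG
Exon 2 (chrX:105069611-105069699, minus strand) has capitals on the 24 bases left out when the later acceptor is used.
Exon 2: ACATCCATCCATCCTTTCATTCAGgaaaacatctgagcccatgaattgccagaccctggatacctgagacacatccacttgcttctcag
Exon 3 (chrX:105068464-105068628, minus strand) has capitals on the 107 bases left out when the earlier donor is used.
Exon 3: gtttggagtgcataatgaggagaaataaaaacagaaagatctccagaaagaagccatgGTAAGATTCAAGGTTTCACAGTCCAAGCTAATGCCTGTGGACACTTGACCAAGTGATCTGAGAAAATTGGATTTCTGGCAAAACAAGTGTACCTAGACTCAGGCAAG
Exon 5 (chrX:105047909-105048010, minus strand) is in capitals throughout, because transcripts held or lacked it as a whole.
Exon 5: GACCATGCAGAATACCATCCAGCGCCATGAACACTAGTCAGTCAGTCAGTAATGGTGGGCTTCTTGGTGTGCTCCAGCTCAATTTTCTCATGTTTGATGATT
At each of the alternative sites inside exons 1 and 3 the capitals begin with GT, and the capitals of exon 2 end with AG.

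The name of the locus rests on structure. The counts below repeat the match that gave the name and are not an independent check of it. A run of intron, exon and intron lengths was sought among the minus-strand X-chromosome transcripts of the GENCODE annotation, with no coordinate carried between builds. Of the 74 locus transcripts with at least 3 exons, 70 matched 5530601H04Rik (ENSMUSG00000087174.7): 44 BROAD, 3 WHITEHEAD, 10 FT and 13 U. The 4 unmatched transcripts were BROAD forms of 4 exons. With the strands of the annotation swapped, 0 X-chromosome transcripts matched the gene. The locus transcripts, being on the minus strand, could not match it in that setting, so the 0 does not bear on the name. Of 32 distinct introns, 23 (71.9%) had the length of an annotated intron of the gene, and all 23 lay at the same distance from their annotated counterparts. Seen from the annotation, 23 of its 24 introns were in the list, and the missing one is 24459 bp long.

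The locus held 78 multi-exon and 2 single-exon transcripts, with 73 distinct splice structures built from 17 donors and 16 acceptors. BROAD names made up 50 of the 80 transcripts (62.5%), against 7% of the whole list. U names made up 16 (20%), against 79.2% of the list. FT names made up 11 (13.8%, against 10.7%) and WHITEHEAD names 3 (3.75%, against 3.05%). BROAD transcripts therefore weighed more, and U transcripts less, in counts at this locus than in the list at large. The list shares cover all 110003 transcripts, of which 15282 had at least 3 exons, against 74 of the 80 here. Shares among spliced transcripts alone were not compared. The BROAD transcripts had 2 to 8 exons and summed exon lengths of 75 to 1955 nt, the FT transcripts 2 to 7 exons and 815 to 3732 nt, and the WHITEHEAD transcripts 4 to 5 exons and 554 to 1072 nt. The spliced U transcripts reached 11 exons, and U lengths, the single-exon transcripts included, ran from 247 to 3623 nt.

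**Figure D1:**
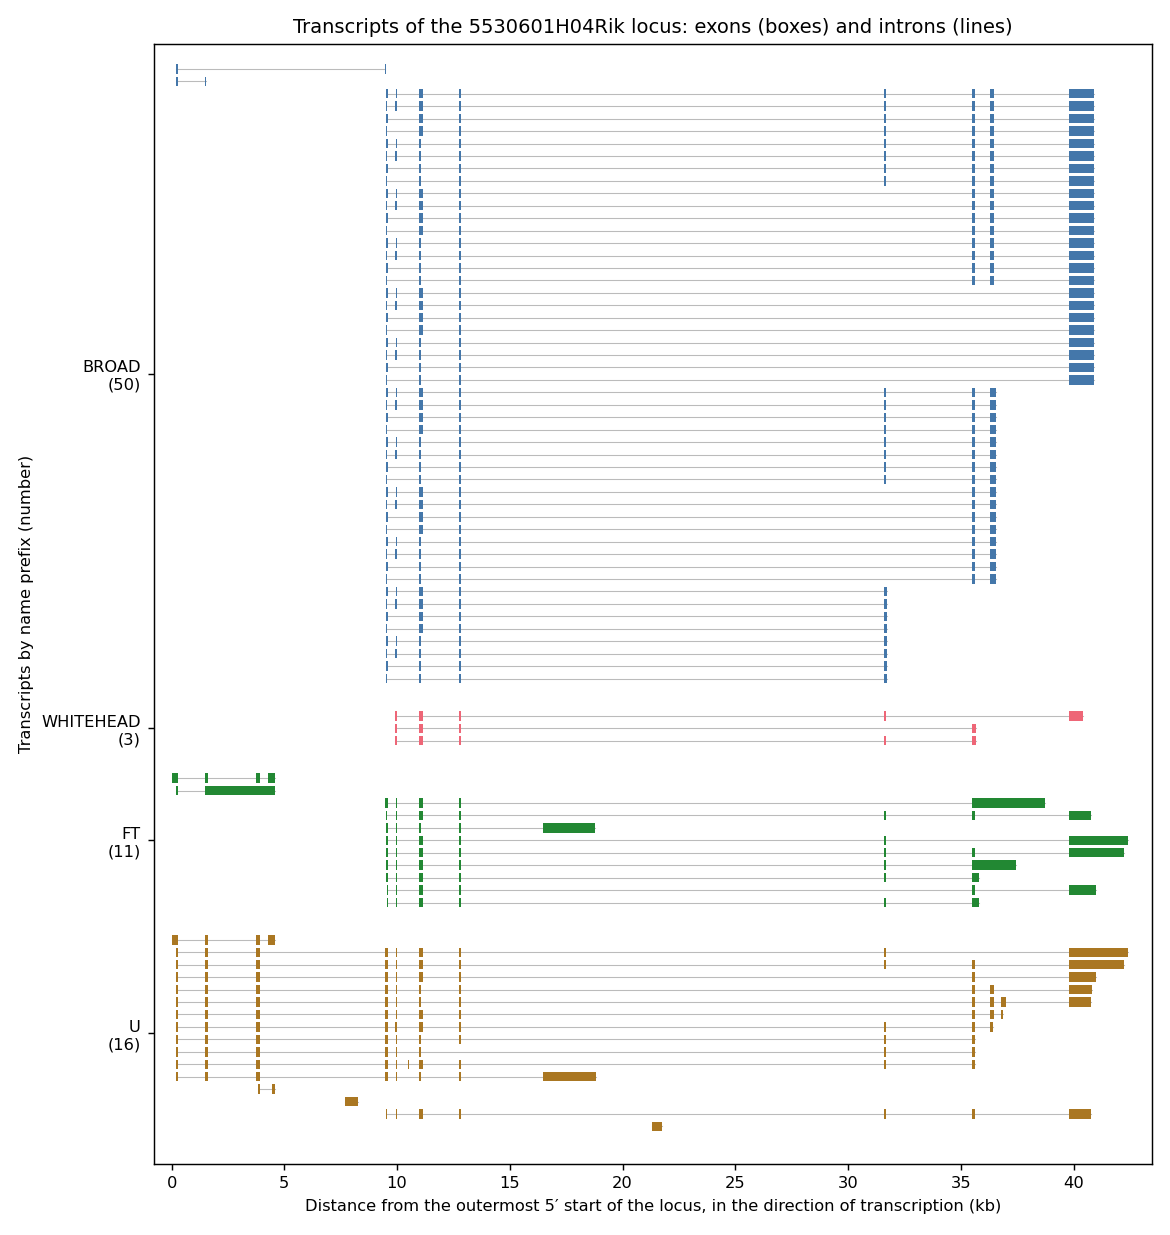
Exon structures of transcripts of the locus by name prefix, drawn against distance in kb along the gene from its outermost start, with 5′ to the left; boxes are exons (those under 60 bp drawn at 60 bp) and lines are introns. Most BROAD and FT structures begin near 10 kb, whereas 12 U structures begin at the far left.

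The transcripts began at 7 groups of 5′ ends, taken as 1 group where starts lay within 50 bp. The outermost position, 102274948, had 2 transcripts, 1 FT and 1 U. The next group, at 102274737-102274776 and 172 bp further in, had 14 transcripts: 2 BROAD, 1 FT and 11 U. These 16 transcripts are called upstream below. The largest group, at 102265399-102265463, had 58 transcripts (72.5% of the locus): 48 BROAD, 9 FT and 1 U. It was the largest through BROAD names: without them it held 10 transcripts, against 12 in the group at 102274737-102274776. The 3 WHITEHEAD transcripts shared 1 start at 102265029, inside exon 2, and their first exon of 80 nt reached 15 nt beyond the 65-nt form of that exon. Together with the largest group they make 61 transcripts of an inner start. One U transcript of 2 exons began between them at 102271130. The remaining U transcripts were the single-exon ones, U230773-1 (102266662 to 102267280, 619 nt) and U312944-1 (102253179 to 102253659, 481 nt), both inside introns of other transcripts.

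**Figure D2:**
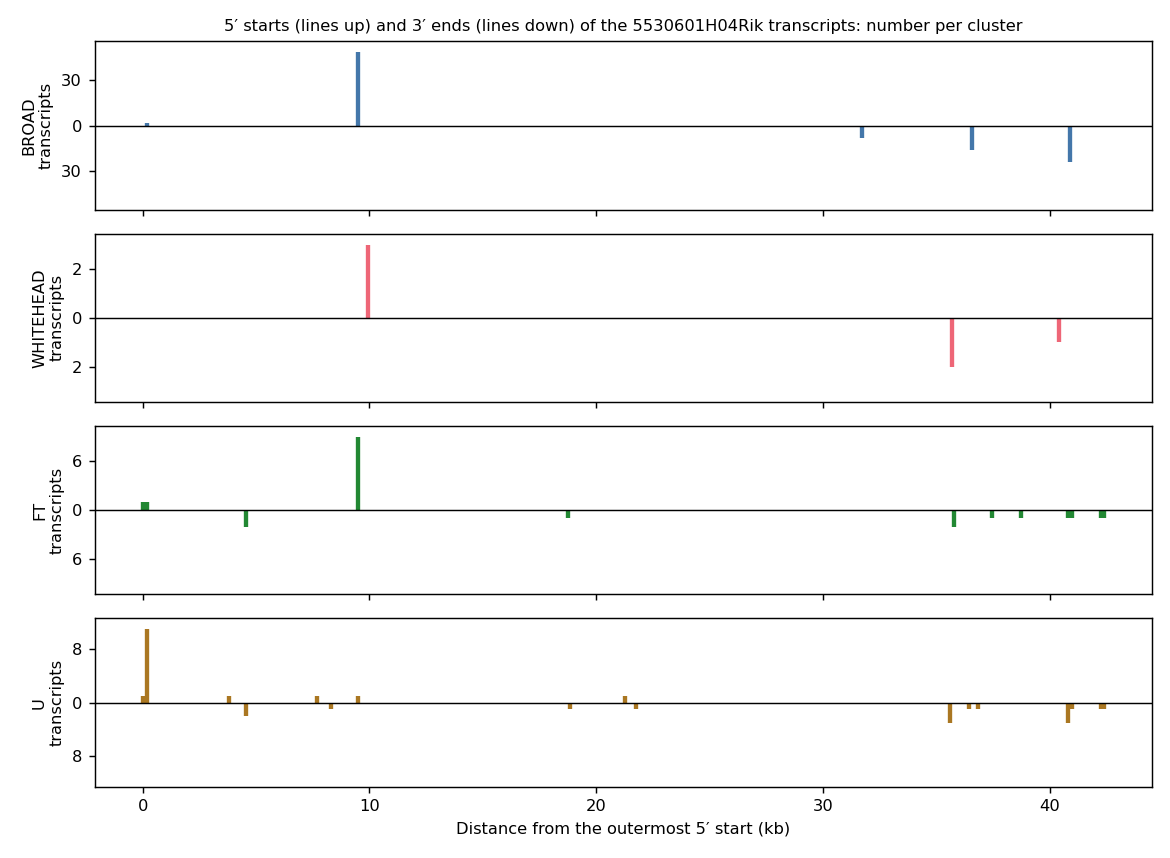
Number of transcripts with a 5′ start (lines up) or 3′ end (lines down) by distance in kb from the outermost start, 1 panel for each name prefix, each with its own vertical scale. BROAD starts stack at 1 inner position with 48 transcripts, while U starts stack at the upstream position with 11.

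The upstream and inner sets met in 1 exon. Of the 16 upstream transcripts, 11 ran on into the inner exons. All 11 had U names, all began at 102274752, and they had 8 to 11 exons and 889 to 3623 nt. Each crossed exons of 133 nt and 174 nt and then spliced by an intron of 5518 bp into an exon of 168 nt, 102265339-102265506. The 58 starts of the largest group lay inside this same exon, with the BROAD start, 102265458, 48 bp in from its 5′ edge, whereas the WHITEHEAD start lay beyond it. The start used by the 11 U transcripts lay 9289 bp upstream of the highest inner start. Upstream transcripts held 25 distinct introns and inner transcripts 17, of which 11 were in both, 44% of the upstream and 64.7% of the inner set. One BROAD transcript of 2 exons also reached the shared exon, by an intron of 9178 bp that skipped both exons in between, and it ended there. No BROAD, FT or WHITEHEAD transcript ran from the upstream starts past that exon. Without U names the remaining 64 transcripts fell into separate sets, 60 at the inner start and 4 outside it, with 21 bp between their nearest ends.

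The U transcript with the most exons, U041247-6, illustrates a full passage through the gene. It ran from 102274752 to 102234156 in 11 exons of 79, 133, 174, 168, 65, 58, 119, 110, 175, 214 and 996 nt, 2291 nt in all. It used the later donor in the exon facing Pbdc1, so that the 11 capital bases shown above stay in the exon, and the earlier donor in exon 3. That later donor, with an intron of 1183 bp, was found in 11 transcripts, all U. The earlier donor was found in 5 transcripts, with an intron of 1194 bp in 1 BROAD, 2 FT and 1 U transcripts and with the 9178 bp intron in 1 BROAD transcript. For 4 of the 9 FT transcripts of the inner start, a U transcript from the upstream start ended in the same introns. In 3 of these the 3′ end was also the same to within 50 bp. FT320088, the longer of the FT transcripts with the most exons, had 7 exons of 97, 65, 165, 119, 102, 110 and 2463 nt (3121 nt) and was one of the 3. FT333477 also had 7 exons (1612 nt), and 0 U transcripts from the upstream start ended in its introns. U041247-11, of the inner start, was identical to FT333477 in every exon and both ends. In the same way U041247-10 was identical to FT310626, of the upstream start.

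Introns were compared between prefixes by exact position. Of the 32, 17 were under 1 prefix, 6 under 2, 4 under 3 and 5 under all 4. The introns ran from 300 to 26946 bp with a median of 1511 bp, and 10 were in 1 transcript only. All 14 FT introns and all 6 WHITEHEAD introns were also in U transcripts, and U had 11 of its 26 introns to itself. BROAD had 6 of its 15 to itself and shared 9 with U, 8 with FT and 5 with WHITEHEAD. The 5 introns under all 4 prefixes form the middle of the gene. They join exon 2 to exon 3 (982 bp, 47 transcripts), exon 3 to exon 4 (1586 bp, 42 transcripts), exon 4 to exon 5 (18748 bp, 38), exon 4 to exon 6 (22647 bp, 23) and exon 5 to exon 6 (3797 bp, 28). The intron of 697 bp between exons 6 and 7 was in 36 transcripts, 32 BROAD and 4 U. The intron of 324 bp between exons 1 and 2 was in 30, 12 BROAD, 8 FT and 10 U. Introns were also set against the annotation, where 14 of the 15 introns under at least 2 prefixes had an annotated length, against 9 of the 17 under 1 prefix. The 9 unmatched introns were 6 found in BROAD only, 2 in U only and 1, of 4189 bp, in FT and U. By prefix, 9 of 15 BROAD introns, 6 of 6 WHITEHEAD, 13 of 14 FT and 23 of 26 U introns matched. Whether the list drew on sources that GENCODE also used was not tested.

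**Figure D3:**
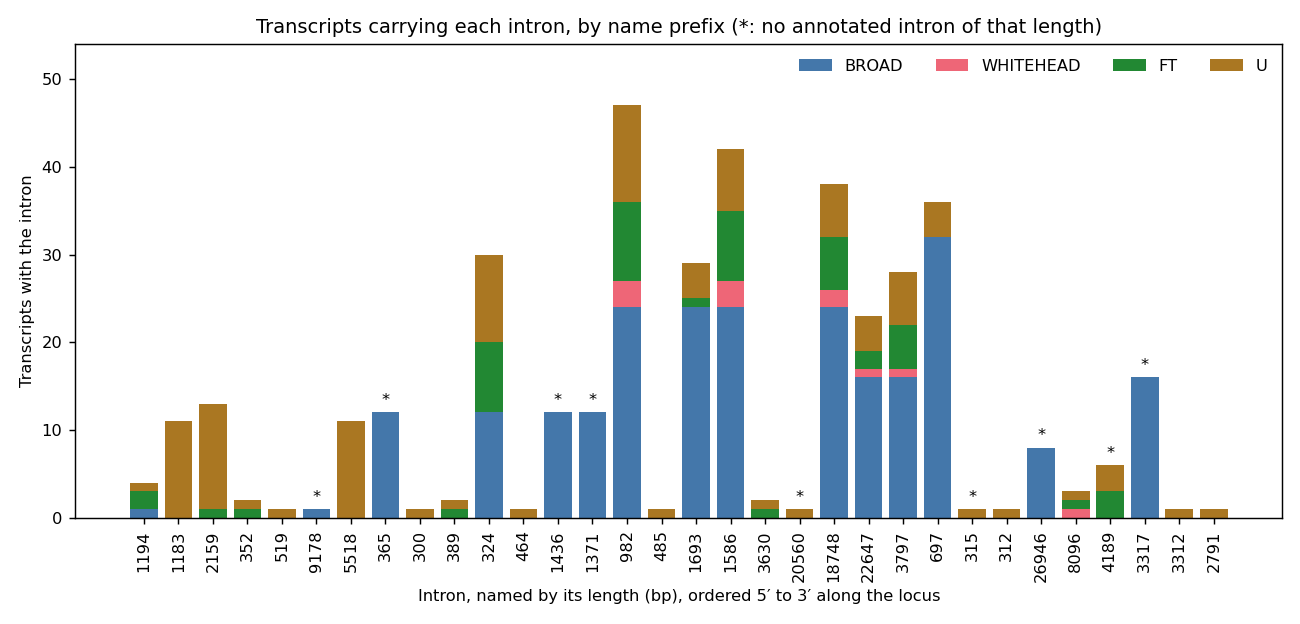
Number of transcripts carrying each of the 32 introns, in order along the gene from the 5′ side and named by length in bp, split by name prefix; an asterisk marks an intron with no annotated intron of that length. The bars for 982, 1586, 18748, 22647 and 3797 bp carry all 4 prefixes, and the BROAD bars for 9178, 365, 1436, 1371, 26946 and 3317 bp stand alone.

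A few sites took part in many splices. The donor of exon 4, 102262097, was in 71 transcripts of all 4 prefixes and was joined to 4 acceptors: those of exon 5, exon 6, the last exon and an alternative last exon. The acceptor of exon 3, 102263968, was in 72 transcripts and was reached from 4 donors. The acceptor of the last exon, 102235152, was in 35 transcripts and was reached from 6 donors. Both donors of exon 1 had 3 acceptors each, the later one (102265338) in 43 transcripts and the earlier one (102265403) in 26. The upstream donor 102271024 also had 3 acceptors, with the 5518 bp splice into the shared exon in 11 of its 14 transcripts.

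Between exons 1 and 2 the donor and acceptor pairs differed in number. The BROAD counts of 12 follow from how that set is built, described below. The later donor with the 65-nt exon 2 was in 30 transcripts of 3 prefixes. The earlier donor with the 89-nt exon 2 was in 12, all BROAD. The crossed pairs were not in BROAD. The earlier donor and the 65-nt exon were in 2 transcripts (1 FT, 1 U), and the later donor and the 89-nt exon in 1 (U). Without BROAD, the later donor with the 65-nt exon was in 18 transcripts and the earlier donor with the 89-nt exon in 0. Outside BROAD the earlier donor was therefore joined only to the 65-nt exon. Exon 2 was skipped in 24 transcripts, 12 from each donor, and all 24 were BROAD. Outside BROAD, exon 2 was joined to exon 3 in 23 transcripts and skipped in 0. The introns that skip exon 2, 1436 and 1371 bp, have no annotated counterpart of the gene.

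Exon 3 also had alternative donors. The later donor, which keeps the whole 165 nt, was in 42 transcripts (24 BROAD, 3 WHITEHEAD, 8 FT, 7 U), and the earlier donor, which leaves 58 nt, in 30 (24 BROAD, 1 FT, 5 U). The equal BROAD numbers follow from how that set is built, described below. Without BROAD, the later donor was in 18 transcripts and the earlier in 6. Of these, upstream transcripts used the later donor in 6 cases and the earlier in 5, and inner transcripts the later in 12 and the earlier in 1. The prefixes differ between these sets as well, with upstream ones mostly U, so start and prefix cannot be told apart here.

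Exons 5, 6 and 7 were optional. Exon 5 was joined from exon 4 in 38 transcripts and skipped in 31, and each form was found under all 4 prefixes. BROAD had 24 of each, which follows from how that set is built, described below. Without BROAD, exon 5 was joined in 14 transcripts and skipped in 7. In 23 of the 31 exon 4 was joined to exon 6. In the other 8, all BROAD, it was joined straight to the last exon by the longest intron of the locus, 26946 bp. Exon 6 led to exon 7 in 36 transcripts, 32 BROAD and 4 U, and straight to the last exon in 6, 3 FT and 3 U. Exon 7 was spliced onward in 19 transcripts and was the last exon in 17. Where spliced onward it had 3 donors within a few bases and was 172, 175 or 180 nt long, with the 175-nt form in 17 transcripts and the others in 1 U transcript each. As a last exon it was 263 nt in 16 BROAD transcripts and 123 nt in 1 U transcript. The alternative last exon beyond exon 4 was in 1 FT and 1 U transcript, at lengths of 2289 and 2351 nt, and both used the earlier donor of exon 3.

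The 3′ ends were more scattered than the starts, with 22 groups. The largest were 102234053 with 24 transcripts, 102238381 with 16 and 102243220 with 8, all BROAD. At the far end FT and U ended together at 102232534-102232536, 102232689 and 102233967, with 1 transcript of each prefix at each place. A group of 4, 1 FT and 3 U, ended at 102234147-102234156. The single plus-strand transcript of the window, U312691-1 (102232154 to 102232579, 426 nt), was 1 exon and overlapped the last exon of the locus by 46 bp, tail to tail.

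The BROAD transcripts of the inner start were a complete grid. All 48 began at 102265458, and they combined 4 ways to leave exon 1, 2 donors of exon 3 and 6 downstream paths to 3 ends. Every 1 of the 48 combinations was present once, from 13 introns. Whether each combination was seen as a molecule cannot be told from the list. The deposited score, a whole number of unstated meaning, ran from 8 to 174 over the 48. BROAD66175, with 8 exons of 120, 65, 165, 119, 102, 110, 175 and 1099 nt, had the highest score.

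The scores of the grid differed by fixed steps. The later donor of exon 3 scored 62 above the earlier donor in each of 24 pairs that were otherwise alike. The splice from the later donor of exon 1 to the 65-nt exon 2 scored 71 above skipping exon 2 from that donor, in each of 12 pairs. The splice from the earlier donor to the 89-nt exon 2 scored 56 above skipping from the earlier donor, and 19 below the later-donor form. With exon 5 and the same end, scores were 12 above those without it in each of 8 pairs, both for the paths to 102234053 and for those to 102238381. Each BROAD score could be written exactly as a sum of 1 number per intron, and it was not read as a level of the transcript. Among WHITEHEAD transcripts, WHITEHEAD89751 with exon 5 scored 139 and WHITEHEAD88995 without it 115, a step of 24. Scores of FT transcripts lay between 980 and 1000 and those of U transcripts were all 0, so scores were not compared between prefixes.

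**Figure D4:**
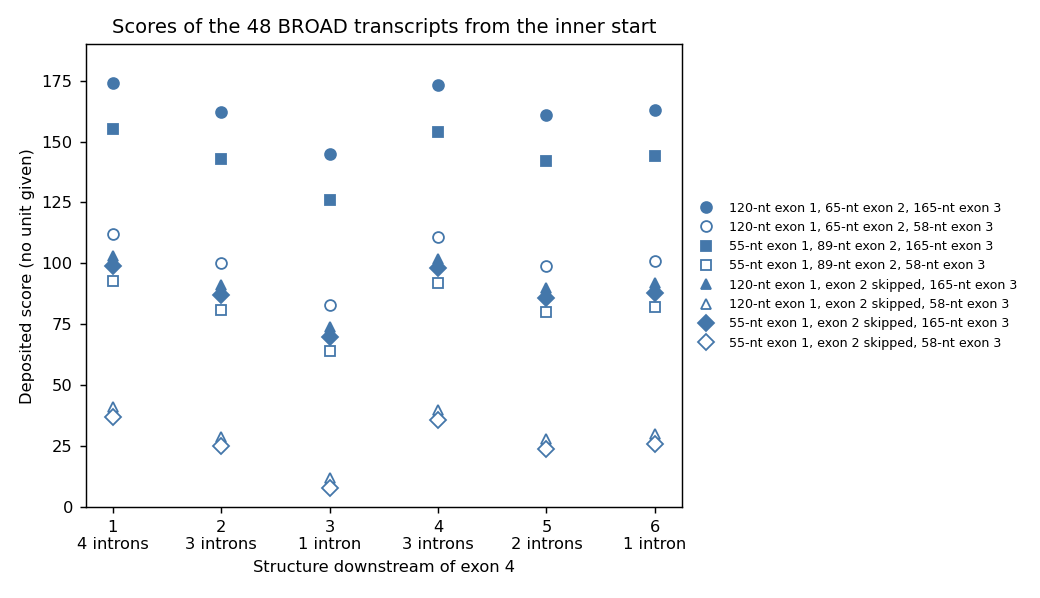
Deposited score (no unit) of the 48 BROAD transcripts of the inner start, with the 6 downstream paths side by side and symbols for the forms of exons 1, 2 and 3 (filled for the 165-nt exon 3, open for 58 nt). The scores run from 8 to 174, and forms with the later donor of exon 3 lie 62 above their partners.

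Few whole structures were shared. Of the 73, 3 were under more than 1 prefix, 1 in BROAD and FT and 2 in FT and U, although 15 introns were. The 2 in FT and U were identical in all exons and both ends. Against the annotation, 7 of the 16 annotated transcripts of the gene had a listed transcript with the same introns, and 3 had the same length for every exon. These 3 were 5530601H04Rik-207 (FT328469, 3732 nt), 5530601H04Rik-203 (FT322404, 3164 nt) and 5530601H04Rik-211 (U041247-9, 247 nt). The listed transcripts with annotated intron chains numbered 11, of which 8 were FT, 2 U and 1 BROAD.

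The facing of Pbdc1 rests on the upstream starts. In GENCODE, Pbdc1 starts at 105079756 on the plus strand (GRCm38), and 5530601H04Rik spans chrX:105037197-105079609. Of its 16 annotated transcripts, 3 start within 1000 bp of Pbdc1, at 147, 319 and 343 bp. One starts at 3965 bp and the other 12 at 9632 to 9721 bp. The transcript at 147 bp, 5530601H04Rik-205, shares its introns with FT310626 and U041247-10. Only 1 annotated transcript, 5530601H04Rik-212 with 6 exons, runs from near Pbdc1 into the inner exons. It ends at 105069112, before exon 3, whereas the 11 such transcripts in the list all reach exon 3. The counts therefore use unlike limits. By RefSeq gene records, which give 5530601H04Rik 1 transcript from the inner start, the gene starts are 9607 bp apart. The list itself held no transcript matched to Pbdc1 and no plus-strand transcript between the locus and 61.1 kb upstream. Of the 80 listed transcripts, 61 began at the inner start and 16 at the end that faces Pbdc1, but 48 of the 61 were BROAD. Without BROAD names 13 began at the inner and 14 at the upstream start.

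The start regions were compared as RefSeq windows of 250 bases before to 50 after a start, among 32817 such windows. The observed over expected ratio of CpG, a measure of CpG island character, was 0.694 at the inner start and 1.1 at Pbdc1, beside a median of 0.383 over all windows. Of all windows, 29.5% were at or above the inner value and 2.11% at or above the Pbdc1 value. The number of CpG was less unusual, at 11 in the inner window and 20 in the Pbdc1 window beside a median of 7. For it, 41.4% and 26.5% of windows were at or above these values. The GC share was 46.7% at the inner start and 49.3% at Pbdc1, both below the median of 52.7%. Motif letters were searched on both strands. CCGGAAGT, the core bound by ETS-family factors, had 1 match in the inner window, 90 bases before the start, and 1 in the Pbdc1 window, after the start. It is present in 3.89% of windows. TATAAA had 1 match in the inner window, at position -249 from the start, and none at Pbdc1, with 13.6% of windows holding it. GGGCGG had none in the inner window and 1 at Pbdc1 (35.6% of windows). CCAAT (37.4%) and CACGTG (7.15%) matched in neither. Of 16 annotated donors of the gene, 10 could be read in the annotated sequences and all 10 began with GT, and 4 of 16 acceptors could be read and ended with AG.

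Against the 15998 multi-exon loci of the list, the 80 transcripts ranked 13th, where the median locus had 1 and the highest 783. By distinct introns it ranked 50th (32, median 1), by structures 10th, by the largest number of exons 109th and by span 1188th (median 3406 bp). The rank by transcripts leans on BROAD names: without them the locus held 30 transcripts and ranked 45th. Its structures fell from 73 to 24 without BROAD names, and the rank by structures was not taken again. All 4 prefixes were present at 251 loci (1.57%), with a median of 10 transcripts and 6 introns, and among these the locus ranked 8th by both counts.

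**Figure D5:**
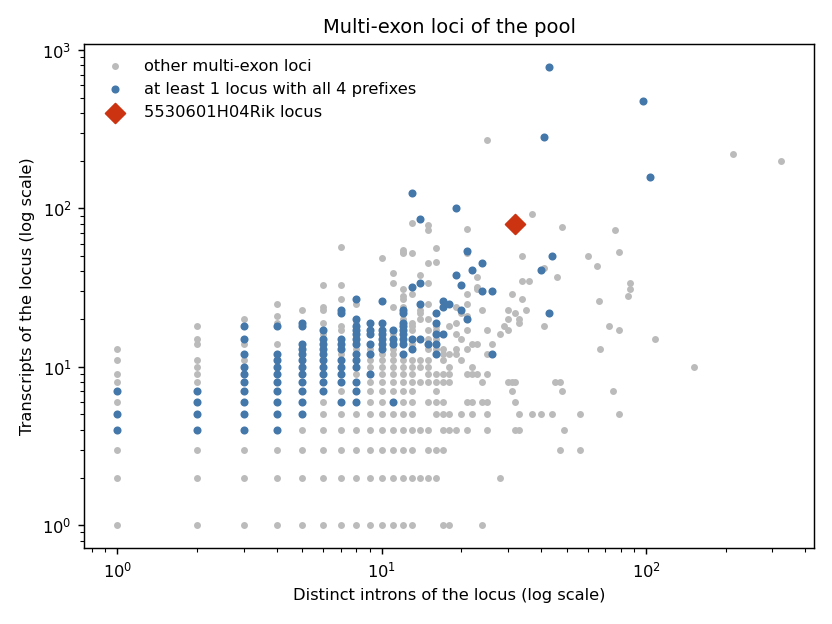
Transcripts (vertical) against distinct introns (horizontal) for multi-exon loci of the list, both as numbers on log axes. Each point is a combination of these counts and can stand for many loci. Blue marks combinations that include a locus of all 4 prefixes, and the 5530601H04Rik locus is shown apart. The locus, at 80 transcripts and 32 introns, lies toward the upper end of both axes, with 12 loci above it in transcripts.

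Among genes named by structure, 5530601H04Rik with 70 transcripts, 44 of them BROAD, ranked 4th of 3843 and the second of 116 on the X chromosome. Firre, a noncoding RNA of nuclear organisation, had 160, of which 133 were BROAD, and next on the X came 2810403D21Rik with 11 and Platr21 with 10. All 4 prefixes matched at 55 genes (1.43%), 6 of them on the X. The 70 transcripts and the 4 prefixes were known when the locus was chosen, so these values are a description only. Of 6 X-linked noncoding genes listed for comparison, 4 were matched: Firre, 4933407K13Rik with 7 transcripts, Jpx, an activator of Xist, with 5, and Xist with 2. Tsix, the antisense repressor of Xist, and Ftx had 0. Of 11 genes described as escaping X inactivation, 2 were matched, Xist and Jpx, both noncoding. The coding ones, such as Kdm6a, Kdm5c and Ddx3x, had 0. Over the annotation, 321 of 18680 coding genes with at least 3 exons were matched (1.72%), and 3288 of 5502 long noncoding genes (59.8%), so few matches among coding genes are general to the list. The genes most like 5530601H04Rik, taken as the nearest in number of matched transcripts among those under all 4 prefixes, were Platr14 (30 transcripts), 2810429I04Rik (20), Rab10os (17), 0610040F04Rik (16) and Mirt1 (15).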

How the data were processed

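RNA from V6.5 cells was sequenced as 1 polyadenylated and 1 ribosomal RNA depleted library, stranded by dUTP per the labels' protocols. The submitters' processing notes name TopHat and mm9. Assembly, scoring and pooling of the transcripts, and the TopHat version, are not given in the sources used here. A single BED list of 12 columns was deposited, and its score column is used as deposited by the authors. Start, end and block number are other deposited columns. Blocks less than 30 bp apart were joined into exons, and overlapping transcripts of 1 strand into loci. Starts or ends within 50 bp formed a group. Structures were matched to GENCODE M21 (GRCm38) from 3 exons upward. Scripts ran in Python 3.11.15 with numpy 2.4.6 and matplotlib 3.10.9. The matching was tested on annotated transcripts of another chromosome shifted in position, which leaves exon and intron lengths unchanged. Joining and grouping were tested on small made-up examples. The members, the lists and the rule for named items were chosen with earlier results of these data known. That rule took the transcript with most exons per prefix, the 5 most carried introns, introns under all prefixes, start groups of 3 or more, sites with 3 or more partners, plus-strand transcripts, and fixed gene lists. The result of 1 of these lists is not reported here. Other transcripts, sites and introns named in the text were chosen after their values were seen. No test was possible with 1 library per group and 1 pooled list. Alternatives covered joining, start distance, locus linking, minimum length, prefixes and matching.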

Additional observations from a re-analysis of the deposited data

How the results depend on the processing

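Of 45 alternative values, 32 were within 1.5 times the main value and 13 moved. Grouping starts within 10 bp gave 11 groups. Without U names the locus shrank to the 60 transcripts of the inner start, with 2 start groups, 17 introns and 8 introns under at least 2 prefixes. With all 64 other transcripts kept, a setting chosen after seeing the data, these were 4, 21 and 9. Leaving out BROAD names, an alternative chosen after seeing the data, gave 30 transcripts, 13 of them at the inner and 14 at the upstream start, 24 structures and rank 45. RefSeq records, also added afterwards, gave 9607 bp between the facing starts. With the strands of the annotation swapped 0 transcripts matched, a setting in which the locus transcripts could not match the gene. The cause was not tested beyond the smaller sets that these settings leave. No paired analysis was possible because the 1 list does not separate the libraries, and no test was made. With no read counts, depth limits every statement on a transcript that is not in the list.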

Other observations

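The step pattern of the scores was not particular to 5530601H04Rik. Scores were exact sums of 1 number per intron, to within 0.001, at all 181 BROAD loci and all 149 WHITEHEAD loci of the list that have more transcripts than such numbers to fit (1775 and 1242 transcripts).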
